A study of Mus musculus with 15 samples.

Results

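The dHF libraries of 15 mice yielded 235 CA2 pyramidal nuclei, between 7 and 28 in a mouse. In NP mice the numbers were 22 in mouse 27, 7 in mouse 31, 9 in mouse 35, 9 in mouse 37, 19 in mouse 63 and 7 in mouse 73. In control RE mice they were 17 in mouse 66, 22 in mouse 72, 7 in mouse 87 and 24 in mouse 88. In stress RE mice they were 19 in mouse 43, 17 in mouse 70, 15 in mouse 75, 28 in mouse 77 and 13 in mouse 90. These nuclei were chosen by their counts of unique molecular identifiers (UMIs, each standing for 1 captured RNA molecule). A CA2 nucleus had at least 1000 detected genes, at least 1 UMI of Slc17a7 (the vesicular glutamate transporter of hippocampal pyramidal neurons), at least 1 UMI of each of Rgs14, Map3k15 and Cacng5, at most 1 UMI of Gad1 and Gad2 together (GABA synthesis) and at most 1 UMI of Prox1 (granule neurons). The 235 nuclei were 0.823% of the 28545 nuclei that met every part of the rule apart from the 3 CA2 genes, called eligible nuclei below, and came from 134019 barcodes in all.

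The nuclei came from frozen bilateral micropunches enriched for dHF, the dorsal hippocampal formation, of adult female C57BL6/J mice, 1 library per mouse and no pooling of mice. NP mice (n = 6) were age-matched virgin nulliparous females. Control RE mice (n = 4, labelled ControlPP) had gone through the whole reproductive experience, from breeding and pregnancy to nursing and weaning, and stress RE mice (n = 5, labelled StressPP) had gone through the same but were separated daily from their pups and kept with limited nesting material in the late postpartum period until weaning. Brains were taken weeks after weaning, so the groups carried no acute separation, and a virgin female differs from a dam in every part of reproduction at once. By their labels the libraries were processed in 3 batches: batch 1 held 2 NP mice and 1 stress RE mouse with no control RE mouse, and every group had 2 mice in batch 2 and 2 in batch 3. The study's methods instead describe batches that each contained all groups, and every batch result here rests on the labels. Libraries held between 40602582 and 96211264 UMIs over 5789 to 12738 barcodes, with 1249 to 2860 eligible nuclei per mouse. The CA2 nuclei themselves held between 4700 and 63832 UMIs (median 23694) and between 2082 and 7840 detected genes (median 5076), and their UMIs summed to 107546 to 792585 per mouse. A level in CPM is a gene's share of those summed UMIs, scaled to the same total in every mouse. A mouse with 7 nuclei therefore gives a much coarser level than one with 28: a gene at 0 UMIs in mouse 87 may still reach 27.9 CPM, and in mouse 77 3.79 CPM, taking 3 counts as the most that a count of 0 allows. Of the 2211 barcode sequences that occurred in more than 1 library, 7 were those of CA2 nuclei and 0 were shared between CA2 nuclei of different mice.

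CA2 is the narrow hippocampal field between CA3 and CA1. Its pyramidal neurons are known for their part in social memory, for long-term potentiation that is hard to induce at the inputs from CA3, for strong calcium extrusion and buffering, and for a perineuronal net, a coat of extracellular matrix that elsewhere mostly surrounds inhibitory interneurons. The vasopressin receptor encoded by Avpr1b and the oxytocin receptor encoded by Oxtr act in these cells in social behaviour, and the mineralocorticoid receptor encoded by Nr3c2 is known to be needed for CA2 identity. Rgs14 limits G protein and MAP kinase signalling and synaptic potentiation in CA2, Cacng5 encodes an auxiliary subunit of AMPA receptors, and Map3k15 encodes a MAP kinase kinase kinase.

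The label was first checked with 10 CA2 markers that were not used to choose nuclei: Amigo2, Pcp4, Necab2, Ptpn5, Actn2, Ntf3, Fgf2, Avpr1b, Adora1 and Nr3c2. The median CA2 nucleus carried 8 of the 10, and 218 of 235 nuclei (92.8%) carried at least 6. This count was not made in CA1 or CA3 nuclei, and some of the markers are common there. In CA1 nuclei, Nr3c2 was detected in 99.0%, Adora1 in 54.0% and Ptpn5 in 51.0%. Pcp4, Necab2, Actn2, Fgf2 and Avpr1b were detected in 0.0538% to 12.2% of them. Amigo2, which encodes a cell adhesion protein, was detected in 77.4% of CA2 nuclei, against 0.915% of CA1 nuclei and 4.21% of CA3 nuclei. Ntf3, the gene of neurotrophin 3, was detected in 88.9% of CA2, 1.33% of CA1 and 6.43% of CA3 nuclei. Oligodendrocyte nuclei, which should lack both genes, gave 0.652% and 1.42%, with median depths of 1891 to 4005 UMIs per mouse against 15003 to 33449 for CA2. CA1 and CA3 nuclei were themselves chosen from the eligible nuclei by marker lists (5575 and 6062 nuclei), and had at most 1 of the 3 rule genes detected. Each carried at least 3 markers of its own list and at least 2 more than of the other. Every comparison of levels between subfields here is therefore a description and carries no test. After each nucleus was thinned to 5000 UMIs, which left out 1 CA2 nucleus (a control RE mouse's), Amigo2 was detected in 34.6% of CA2, 0.239% of CA1 and 1.40% of CA3 nuclei. Of the 235 CA2 nuclei, 7 (2.98%) had at least 3 of 7 CA1 markers. The CA3 list was divided: 98.3% of CA2 nuclei carried Cpne4, 98.7% Grik4 and 50.2% Homer3, against 2.13% to 11.5% for Iyd, Coch, Bok and Cdh24. A nucleus of CA2 type with at most 1 rule gene detected could therefore have entered the CA3 set. How many did was not tested. With Cpne4 and Grik4 set aside, a choice made with these values known, 28 nuclei (11.9%) had at least 2 of the other 5 CA3 genes. The weakest members were a nucleus of mouse 72 with 1 of the 10 markers at 13838 UMIs and a nucleus of mouse 27 with 3 of them at 29183 UMIs. The highest doublet scores (Scrublet), which marked 7.47% of all barcodes, fell on 17 CA2 nuclei (7.23%).

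The rule lies close to the detection limit. Exactly 1 UMI was seen for Rgs14 in 83 nuclei (35.3%), for Map3k15 in 88 (37.4%) and for Cacng5 in 70 (29.8%), and 168 nuclei had at least 1 of the 3 genes at 1 UMI. Just outside the rule stood 499 eligible nuclei with exactly 2 of the 3 genes, 4656 with 1 and 23155 with none. Nuclei that carried more of the 3 genes were also deeper: median UMIs were 8694, 13221, 18409 and 23694 for 0, 1, 2 and 3 genes. Among nuclei of matched depth, 15000 to 25000 UMIs, medians ran from 18519 to 19314 UMIs, and Amigo2 was detected in 3.62%, 6.57%, 43.4% and 75.8% of nuclei with 0, 1, 2 and 3 genes. Ntf3 went from 3.45% and 5.25% to 48.3% and 89.5%, and Necab2, a neuronal calcium-binding protein gene, from 10.1% and 22.0% to 54.1% and 82.1%. Nuclei with 2 rule genes therefore stood between the members and the other eligible nuclei in all 3 markers, and the rule leaves out nuclei that carry these markers.

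**Figure D1:**
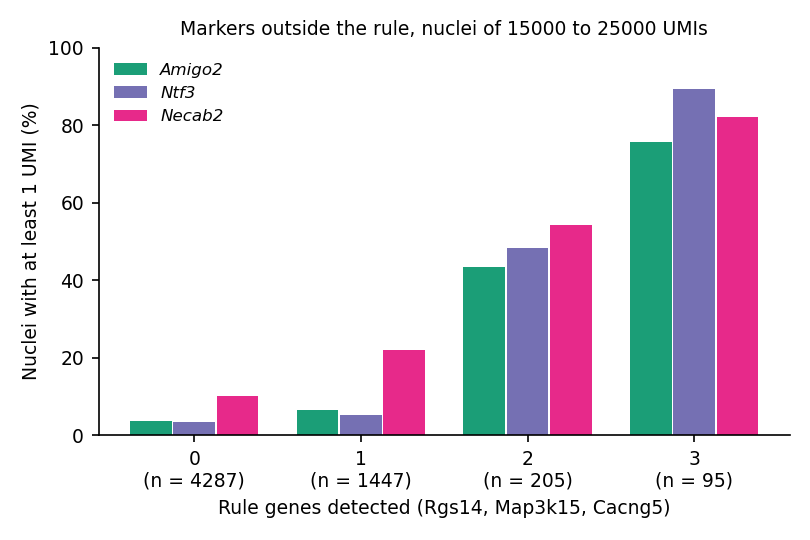
Share of eligible nuclei (percent) with at least 1 UMI of Amigo2, Ntf3 or Necab2, by the number of rule genes (Rgs14, Map3k15, Cacng5) detected, among nuclei of 15000 to 25000 UMIs. For Amigo2 the share goes from 3.62% with no rule gene to 75.8% with all 3.

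RNA of other cell types was counted in the CA2 nuclei with marker lists. All 5 oligodendrocyte markers (Mog, Mbp, Mobp and Mag among them) were detected, and their sum per mouse was 34.0 to 91.6 CPM in NP, 19.3 to 83.7 CPM in control RE and 23.1 to 228 CPM in stress RE mice, against 10372 CPM in oligodendrocyte nuclei. Of the CA2 nuclei, 7 had 10 or more such UMIs (the highest 68), and 86 had none. The 4 vascular markers (Cldn5, Flt1, Pecam1, Vtn), all detected, summed to 0 in NP mice, to 0 to 195 CPM in control RE mice and to 0 to 3.21 CPM in stress RE mice. A single nucleus of mouse 87 carried 5 or more vascular UMIs. These 8 nuclei (2 NP, 1 control RE, 5 stress RE) stayed in, and results were also computed without them. All 8 GABAergic markers were detected at a sum of 4.62 to 72.3 CPM per mouse, the 4 microglial markers at 0 to 43.5 CPM and the 5 astrocyte markers at 18.4 to 125 CPM. Of the neuronal lists, the 5 thalamic markers summed to 282 to 970 CPM, against 713 CPM in CA1 and 1089 CPM in CA3 nuclei, and the 5 cortical markers to 37.2 to 209 CPM, against 105 and 234 CPM. The 6 granule markers summed to 15.7 to 235 CPM, and the 5 subiculum markers to 0 to 102 CPM with Nts at 0 UMIs.

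The rule itself sets a high level of the 3 rule genes and a floor in every mouse. The choice of CA1 and CA3 nuclei, with at most 1 of these genes, likewise holds their levels down there. Rgs14 lay between 74.6 and 136 CPM (median 97.2) in the 15 mice, with a mean of 100 ± 20.9 CPM (SD, n = 15), against 18.9 CPM in CA1 and 5.04 CPM in CA3. Map3k15 lay between 79.7 and 139 CPM, against means of 1.09 in CA1 and 1.29 in CA3. Cacng5 lay between 67.0 and 190 CPM, against 1.90 in CA1 and 5.08 in CA3. Among the 3, Rgs14 had the highest level in the chosen CA1 nuclei, of which 22.8% carried it.

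Among the markers outside the rule, 8 of the 9 that reached 20 CPM in CA2 or CA1 were higher in CA2 than in CA1 in each of the 10 mice with at least 10 CA2 nuclei, and none was lower in each. Over all 6435 genes at that level, 12.3% were higher in CA2 in each of the 10 mice and 22.6% were lower in each. Against CA3, 7 of 9 were higher and 1 lower, where 12.3% and 20.9% of 6368 genes were. The median difference of the markers on the log2(CPM + 1) scale was 2.63 over CA1 and 2.08 over CA3, where all genes had medians of -0.16 and -0.14.

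Amigo2 was 67.7 CPM at the median of the NP mice (range 41.5 to 181). It was 93.9, 66.7, 93.0 and 67.4 CPM in control RE mice 66, 72, 87 and 88, and 57.9, 42.6, 57.8, 79.5 and 49.1 CPM in stress RE mice 43, 70, 75, 77 and 90. The 3 groups overlapped, and the lowest CA2 level lay above the highest level of any mouse in CA1 (1.33 CPM) and in CA3 (5.08 CPM). Ntf3 was 217 CPM at the median of the NP mice (170 to 331), 161, 165, 149 and 198 CPM in the control RE mice and 158, 295, 167, 174 and 208 CPM in the stress RE mice. No mouse came near these values in CA1 (0.163 to 2.64 CPM) or CA3 (1.83 to 14.1 CPM). Ptpn5, the gene of the striatum-enriched phosphatase STEP that dephosphorylates glutamate receptors and kinases, averaged 311 ± 55.3 CPM in CA2 (SD, n = 15), 57.0 in CA1 and 72.7 in CA3. Necab2 averaged 95.4 ± 30.6 CPM, against 3.47 and 10.9 CPM.

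Fgf2, the gene of a fibroblast growth factor, averaged 56.9 ± 15.4 CPM, against 4.58 and 6.34 CPM. Pcp4, which encodes a calmodulin-binding peptide and is a usual histological marker of CA2, averaged 99.6 ± 39.1 CPM, against 15.2 CPM in CA1 and 41.4 CPM in CA3, and was also present in 12.9% of oligodendrocyte nuclei. Avpr1b rested on few molecules: 91 UMIs over 68 nuclei, with at most 4 in a nucleus. It reached between 0 and 34.0 CPM in NP mice (median 12.5), where the 0 of mouse 31 allows up to 27.1 CPM. It was 26.8, 14.0, 27.9 and 4.35 CPM in control RE and 27.4, 7.75, 19.3, 8.83 and 14.4 CPM in stress RE mice. Avpr1b was scarce in every group, and was near absent from the neighbours: 0.0538% of CA1, 0.198% of CA3 and 0.0182% of oligodendrocyte nuclei carried it, against 28.9% of CA2 nuclei. Actn2, an actinin of the postsynaptic cytoskeleton, went the other way, with 21.0 ± 11.1 CPM in CA2 against 34.2 CPM in CA3, lower in 10 of 10 mice (a log2 difference of -0.68, which turned to 0.12 in nuclei with at least 2 UMIs of each rule gene). Adora1, the adenosine A1 receptor gene, was 88.6 CPM in CA2 and 93.6 CPM in CA3, with the 10 mice split 4 against 6.

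The genes with the largest excess in CA2 were then listed, 15 over each neighbour, among genes at 20 CPM or more in CA2 and higher there in each of the 10 mice. Acan, Amigo2, Lrp2, Ntf3 and Tll2 stood in both lists, as did the rule genes Cacng5 and Map3k15, whose place there, like that of Rgs14 over CA3, was fixed by the choice of nuclei. Acan encodes aggrecan, the core proteoglycan of perineuronal nets, and averaged 65.4 ± 51.8 CPM in CA2 (SD, n = 15), 0.352 CPM in CA1 and 1.79 CPM in CA3. It was detected in 61.3% of CA2, 0.305% of CA1, 2.26% of CA3 and 0.379% of oligodendrocyte nuclei. Its SD was set by NP mouse 31, with 244 CPM from 7 nuclei, while the other 14 mice lay between 23.1 and 78.5 CPM. Lrp2 (megalin, a large endocytic receptor) averaged 56.4 ± 20.9 CPM, against 0.249 and 1.16 CPM. Tll2 (a tolloid-like metalloprotease) ranged more widely, from 14.0 to 208 CPM in CA2, with means of 0.230 CPM in CA1 and 0.534 CPM in CA3.

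Over CA1 alone the list went on with Ccdc3 (223 CPM in CA2, 2.14 in CA1, 54.0 in CA3), Cpne4 (1576, 41.3 and 1052 CPM), Spock1 (1538, 59.3 and 1022 CPM) and Plcxd3 (265, 8.72 and 35.2 CPM). Cpne4, which encodes a calcium-dependent membrane-binding copine, and Spock1, which encodes a testican proteoglycan, were thus shared with CA3, and Cpne4 was among the markers that chose the CA3 nuclei. Dchs2, a protocadherin gene, read 87.1 CPM in CA2, 1.90 in CA1 and 41.3 in CA3. Htr7, the gene of a serotonin receptor coupled to adenylyl cyclase, averaged 99.5 ± 32.6 CPM in CA2, 2.99 in CA1 and 19.5 in CA3. Gm26633 (32.7, 0.315 and 1.96 CPM) is annotated as antisense and lies on chr7:79018053-79053323 on the minus strand, next to Acan at chr7:79053483-79115099 on the plus strand in GENCODE. The start of Acan that RefSeq uses lies further upstream, within the span of Gm26633.

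Over CA3 the list held, beside the 7 shared genes and Rgs14, genes that CA1 also expressed. Gm2115 read 201 CPM in CA2 and 12.3 CPM in CA3 but 299 CPM in CA1, and Ptpru, a receptor tyrosine phosphatase gene, 80.4, 4.65 and 87.8 CPM. Others were low in both neighbours. Gm43154, a long noncoding RNA, averaged 319 ± 57.4 CPM in CA2, 12.4 in CA1 and 6.04 in CA3, and its gene model overlaps that of Gm13849 on the same strand of chromosome 6, so counts of the pair are uncertain. Hcrtr2, the gene of an orexin receptor, averaged 63.7 ± 19.0 CPM, against 4.21 and 2.82 CPM. Ctsc (cathepsin C, a lysosomal protease) averaged 61.1 ± 13.5 CPM, against 1.70 and 2.77 CPM. Fyb2 averaged 151 ± 42.2 CPM, against 14.3 and 6.36 CPM.

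The 2 lists held 23 different genes, the 3 rule genes included, 18 of which had a promoter in the RefSeq table used here (GRCm38.p6, 250 bases before to 50 after the start). Their 21 promoters were searched on both strands for the half-site AGAACA that corticosteroid receptors bind, because Nr3c2 is prominent in CA2. It was found in 1 promoter, that of Ctsc, against 19.0% of the 32851 promoters in the table. A match is a description of letters, and no match says only that these letters are not in this window. The promoters of Amigo2 (chr15:97247238-97247537, minus strand), Ntf3 (chr6:126164911-126165210, minus strand, 1 of its 2 starts), Acan (chr7:79052976-79053275, plus strand) and Ctsc (chr7:88277835-88278134, plus strand) are shown because these genes marked CA2 against both neighbours, in lower case from 5′ to 3′ with the half-site of Ctsc, there on the other strand and so printed as its reverse complement, in capitals.
Amigo2: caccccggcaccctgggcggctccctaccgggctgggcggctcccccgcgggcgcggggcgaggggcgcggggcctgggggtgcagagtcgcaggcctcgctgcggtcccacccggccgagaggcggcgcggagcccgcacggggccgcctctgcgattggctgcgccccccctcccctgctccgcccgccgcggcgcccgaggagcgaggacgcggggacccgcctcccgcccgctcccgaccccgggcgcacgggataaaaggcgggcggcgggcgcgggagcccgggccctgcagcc
Ntf3: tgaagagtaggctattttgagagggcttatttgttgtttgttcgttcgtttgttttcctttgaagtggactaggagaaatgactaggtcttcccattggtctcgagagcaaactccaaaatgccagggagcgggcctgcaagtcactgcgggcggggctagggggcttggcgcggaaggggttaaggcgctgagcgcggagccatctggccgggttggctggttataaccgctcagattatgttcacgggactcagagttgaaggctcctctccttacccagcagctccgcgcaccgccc
Acan: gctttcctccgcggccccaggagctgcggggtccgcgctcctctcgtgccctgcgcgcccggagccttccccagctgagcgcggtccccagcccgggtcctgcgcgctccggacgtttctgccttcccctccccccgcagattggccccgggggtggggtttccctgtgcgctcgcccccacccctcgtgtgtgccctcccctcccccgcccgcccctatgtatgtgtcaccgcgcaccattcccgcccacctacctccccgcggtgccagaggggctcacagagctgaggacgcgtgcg
Ctsc: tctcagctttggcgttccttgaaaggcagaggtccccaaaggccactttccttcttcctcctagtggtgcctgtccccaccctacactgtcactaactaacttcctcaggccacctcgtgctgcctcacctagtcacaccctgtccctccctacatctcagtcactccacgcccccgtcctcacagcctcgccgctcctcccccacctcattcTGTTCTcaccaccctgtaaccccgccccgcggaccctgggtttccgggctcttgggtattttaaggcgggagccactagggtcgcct

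What CA2 lacked also set it apart from each neighbour. Against CA1 the largest deficits were in genes that mark CA1, among them Fibcd1 (1.47 CPM in CA2, 75.2 in CA1), Mpped1 (6.50 and 226 CPM) and Gpr161 (3.00 and 97.1 CPM), which had served to choose the CA1 nuclei. Others had not been used: Galntl6, a glycosyltransferase gene, read 199 CPM in CA2 and 5311 CPM in CA1, the teneurin gene Tenm3 52.5 and 1382 CPM, and Gm2164, annotated as antisense, 14.5 and 894 CPM. The heparan sulfate sulfotransferase genes Ndst3 (13.2 and 430 CPM) and Ndst4 (18.2 and 467 CPM), the receptor gene Ror1 (18.4 and 463 CPM) and the cadherin gene Cdh6 (2.61 and 86.6 CPM) were likewise low. CA3 was low in some of them as well, with 251 CPM of Galntl6 and 24.4 CPM of Ndst3.

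Against CA3 the 15 largest deficits included the axon guidance genes Sema5b (1.54 CPM in CA2, 138 in CA3) and Slit2 (17.9 and 445 CPM) and the cadherin gene Cdh9 (26.5 and 508 CPM). Synpr, the gene of the synaptic vesicle protein synaptoporin that marks mossy fibre terminals, read 11.6 CPM in CA2 and 330 CPM in CA3, and the transcription factor gene Tead1 9.50 and 191 CPM. The amino acid transporter gene Slc7a14 was low in CA2 alone, with 12.8 CPM against 194 CPM in CA1 and 335 CPM in CA3. The noncoding RNA 4930467D21Rik had 0 UMIs in CA2 and 32.5 CPM in CA3, where 0 UMIs over all CA2 nuclei allow up to 0.502 CPM.

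The remaining genes were described by lists of known function, each gene against itself in the other subfields and counted when it was at 20 CPM or more in either of the fields compared and higher or lower in CA2 in each of the 10 mice. Each count is to be read against the shares over all genes, 12.3% higher and 22.6% lower than in CA1 and 12.3% higher and 20.9% lower than in CA3. In the corticosteroid list, 4 of 6 genes were higher than in CA1 and 1 lower (median log2 difference 0.33), and 3 of 5 were higher than in CA3 and 2 lower (median 1.15). Nr3c2 stood at 2154 to 2646 CPM in the 15 mice (mean 2404 ± 174, SD), at 1452 CPM in CA1 and at 1079 CPM in CA3, and its lowest CA2 value lay above the highest value of any mouse in CA1 (1694 CPM). Fkbp5, the gene of a co-chaperone induced by glucocorticoids, was 156 ± 38.6 CPM in CA2, 48.4 in CA1 and 47.2 in CA3. The glucocorticoid receptor gene Nr3c1 went the other way, with 42.2 ± 15.6 CPM against 151 and 67.7 CPM. Zbtb16 was 554, 435 and 181 CPM, and Sgk1, a kinase gene that corticosteroids induce, lay between its neighbours at 141 CPM, with 114 in CA1 and 265 in CA3. The balance of both receptor transcripts therefore differed between the fields: Nr3c2 was higher and Nr3c1 lower in CA2 than in CA1 and CA3 in 10 of 10 mice.

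Among sex steroid receptors, the progesterone receptor gene Pgr was 10.5 CPM in CA2 against 40.2 CPM in CA1, lower in 10 of 10 mice, and 12.4 CPM in CA3. Esr1 (28 UMIs) was 4.82 CPM in CA2, and Esr2 had 0 UMIs, which allows up to 0.502 CPM over all CA2 nuclei. Peptide hormone receptors were scarce, and of this list Crhr1 alone reached 20 CPM in one of the fields. Crhr1, a corticotropin-releasing hormone receptor gene, was 3.15 CPM in CA2, 23.8 in CA1 and 20.1 in CA3. Oxtr gave 15 UMIs in 14 nuclei, and 4 nuclei carried both Oxtr and Avpr1b. The prolactin receptor gene Prlr was 1.95 CPM, against 8.86 CPM in CA1 and 3.52 CPM in CA3, and the neuropeptide Y receptor gene Npy2r 17.7, 7.60 and 19.7 CPM.

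The calcium list was divided. Of 12 genes, 3, with Pcp4 and Mcu among them, were higher and 5 (Calb1, Micu3, Atp2b1, Atp2b2 and Itpr1) lower than in CA1 in each of the 10 mice (median 0.02), where 12.3% of all genes were higher and 22.6% lower. Against CA3, 5 of 11 were higher and 6 lower (median -0.22). Mcu, the pore subunit of the mitochondrial calcium uniporter, was 490 ± 51.1 CPM in CA2 with every mouse between 376 and 564 CPM, against means of 102 CPM in CA1 and 221 CPM in CA3. Micu3, a regulator of that uniporter, was 89.7 CPM, against 113 and 105 CPM. Itpr1, the calcium release channel of the endoplasmic reticulum, was 116 CPM, against 539 and 189 CPM, and the plasma membrane calcium pump gene Atp2b1 726 CPM, against 2204 and 1194 CPM. Calb1, the buffer calbindin, was near absent with 11 UMIs (1.80 CPM, against 23.5 and 10.9 CPM). The sodium-calcium exchanger gene Slc8a1 was 2514 CPM in CA2, 2361 in CA1 and 984 in CA3.

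Of the perineuronal net and matrix list, Acan and Vcan were higher and Tnr lower than in CA1 among 6 genes (median 0.23), and Acan, Vcan and Bcan were higher and Tnr lower than in CA3 (median 0.52). Vcan (versican, which oligodendrocyte precursors also express) lay between 49.1 and 133 CPM, against means of 9.41 and 10.8 CPM. Tnr, the gene of tenascin-R that cross-links the net, was 262 CPM, against 565 and 770 CPM. Hapln1, the link protein gene of the nets, gave 7 UMIs. In the growth factor list, Ntf3, Fgf2, Fgfr1 and Igf1r were higher than in CA1 and none of 9 was lower (median 1.21), and Ntrk2 joined them against CA3 (5 higher, none lower of 9, median 0.61). Igf1r was 581 ± 118 CPM, against 170 and 350 CPM, and Fgfr1 196 ± 33.4 CPM, against 82.7 and 132 CPM. Bdnf was 39.1 CPM in CA2, 38.9 in CA1 and 65.0 in CA3, and the receptor gene of neurotrophin 3, Ntrk3, was 891, 992 and 959 CPM.

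Of the glutamate receptor genes, 8 of 17 were lower and 2 higher than in CA1 (median -0.33), and 8 of 18 lower and 3 higher than in CA3 (median -0.52). Grik4, a high-affinity kainate receptor subunit, was 1056 ± 278 CPM, against 53.5 CPM in CA1 and 1466 CPM in CA3, where it was among the choosing markers. Grik2, another kainate receptor subunit, was 573 CPM, against 858 and 1600 CPM. The auxiliary subunits of AMPA receptors were divided. Cacng5 (a rule gene) and Shisa9 were higher than in both neighbours and Cacng2, Cacng3 and Cacng8 lower than in both, with list medians of -0.15 over 9 genes against CA1 and -0.06 over 8 against CA3. Shisa9 was 362 ± 58.5 CPM, against 76.5 and 151 CPM, and Cacng3 5.68 CPM, against 156 and 81.0 CPM. Cacng2 (stargazin) was 18.4 CPM, against 48.8 and 192 CPM.

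In the list of monoamine, acetylcholine and adenosine receptors, Htr7 and Adora1 were higher and Htr2c, Chrm1 and Chrm3 lower than in CA1 among 7 genes (median 0.24), and Htr4 and Htr7 were higher and Htr2c and Chrm3 lower than in CA3 among 8 (median -0.03). Htr7 was 108 CPM at the median of the NP mice (72.9 to 190), 73.8, 79.0, 93.0 and 63.1 CPM in control RE mice and 60.9, 110, 99.5, 110 and 121 CPM in stress RE mice. The groups overlapped, and every mouse lay above the highest CA3 value (28.8 CPM). Htr1a, the inhibitory serotonin receptor gene, gave 1 UMI in CA2 against 9.29 CPM in CA1. The dopamine receptor genes were scarce in all CA2 nuclei together, with 8 UMIs of Drd1, 3 of Drd2, 1 of Drd3, 0 of Drd4 and 24 of Drd5.

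Potassium and HCN channel genes split into 7 higher and 5 lower of 20 against CA1 (median -0.09; all genes 12.3% higher and 22.6% lower) and 8 higher and 7 lower of 20 against CA3 (median -0.17). Kcnq5 was 3302 ± 667 CPM, against 1428 and 2197 CPM, while Kcnq3, another subunit of the M current, was 416 CPM, against 1753 and 1161 CPM. Kcnd3, an A-type channel gene, was 289 CPM, against 68.1 CPM in CA1 and 337 CPM in CA3. Of the RGS list, Rgs14 (a rule gene) was higher and Rgs7 and Rgs8 lower than in both neighbours. Rgs6 was 12.9 CPM, against 45.1 CPM in CA1 and 187 CPM in CA3, and lower than CA3 in 10 of 10 mice. Among immediate early genes, Junb, Egr1, Nr4a2 and Homer1 were lower than in CA1 and none of 7 higher (median -0.74), and Nr4a1 was higher and Nr4a3 lower than in CA3 among 3. Egr1 was 15.6 CPM, against 59.7 and 19.5 CPM. The transglutaminase genes were at or near 0, with 1 UMI each of Tgm1 and Tgm2 and none of Tgm3.

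The share of CA2 nuclei among eligible nuclei was compared between the groups over mice. It was 0.819 ± 0.500% in NP (SD, n = 6), 0.682 ± 0.230% in control RE (n = 4) and 0.997 ± 0.317% in stress RE mice (n = 5). In NP mice the lowest was 0.410%, the median 0.576% and the highest 1.67%. The control RE shares were 0.703%, 0.835%, 0.351% and 0.839%, and the stress RE shares 1.14%, 1.18%, 0.687%, 1.34% and 0.632%. The groups overlapped. The 95% Wilson interval of mouse 27, the highest, ran from 1.11% to 2.52%, and that of mouse 87, the lowest, from 0.170% to 0.723%, covering counting error only.

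Stress RE exceeded control RE by 0.314 percentage points (SE 0.183; two-sided exact permutation test over mice, p = 0.159, adjusted p = 0.476 over 3 comparisons). Control RE minus NP was -0.137 points (SE 0.234, exact p = 0.686, adjusted p = 0.686), and stress RE minus NP 0.178 points (SE 0.249, exact p = 0.515, adjusted p = 0.686). The sign of control RE minus NP was not stable: without NP mouse 27 it was 0.0343 points, and other choices given below also turned it. The smallest p-values that the exact test allows here are 0.0159, 0.00952 and 0.00433. None of the differences passed the threshold. Within batches 2 and 3 the stress RE minus control RE differences were 0.150 and 0.388 points, the control RE minus NP differences -0.00158 and -0.0488, and the stress RE minus NP differences 0.149 and 0.339. A lower share of CA2 nuclei and less RNA of the rule genes per nucleus cannot be told apart by this rule. Eligible nuclei were deeper in stress RE mice, with a median over mice of 11462 UMIs, against 8932.5 in control RE and 9930 in NP. In nuclei of at least 15000 UMIs, control RE shares were 2.09%, 3.04%, 1.01% and 4.32%. Those of stress RE mice were 2.27%, 3.02%, 4.12%, 2.75% and 1.54%, which overlapped. The part of depth in the share differences was not tested. For a thinned share, every nucleus with Slc17a7 and at least 5000 UMIs was thinned to 5000 UMIs. The whole rule was then applied to the thinned counts. This left out 2434 NP, 2281 control RE and 2024 stress RE eligible nuclei as too shallow. Nuclei above the limits for Gad1, Gad2 or Prox1 before thinning could enter. After thinning, 14 nuclei met the rule.

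Expression within CA2 was compared between stress RE and control RE mice on UMIs summed over the CA2 nuclei of each mouse, in the 10 mice with at least 10 such nuclei (5 stress RE, 3 control RE and 2 NP mice in 1 fit). This asks whether postpartum stress left a mark on CA2 beyond that of reproduction. Batch was not in this fit or in those with NP, and with batch as a term each of the 3 comparisons within CA2 also called 0 genes. Of 6809 genes tested, 0 (0.0%) passed an adjusted p of 0.05 in edgeR's quasi-likelihood test and 0 in DESeq2, while edgeR gave 261 genes an unadjusted p under 0.05. Of the 234 genes on the lists, 110 could be tested and 10 had an unadjusted p under 0.05 (9.09%, against 3.83% of all genes tested). These 10 included the oligodendrocyte gene Mbp, with a log2 fold change of 1.95. The sum of oligodendrocyte markers reached 228 CPM in stress RE mouse 77 and 145 CPM in mouse 70, against at most 83.7 CPM in control RE mice, and its part in other genes was not tested here beyond leaving those nuclei out.

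CA2 identity genes did not pass the test. The log2 fold change of stress RE over control RE was -0.37 (SE 0.22) for Amigo2, 0.20 (SE 0.20) for Ntf3, -0.04 (SE 0.11) for Nr3c2 and 0.04 (SE 0.56) for Avpr1b. Avpr1b rested on few UMIs and had the largest SE of these genes. Which change could be detected in each of these genes at this depth was not tested. Fkbp5 was 181, 205, 112 and 200 CPM in control RE mice and 139, 178, 135, 127 and 133 CPM in stress RE mice (log2 fold change -0.46, SE 0.15, edgeR adjusted p = 1.00). The groups overlapped through control RE mouse 87, whose 7 nuclei kept it out of the fit. Acan had a log2 fold change of -0.57 (SE 0.25), with 64.9, 71.9, 27.9 and 58.7 CPM in control RE and 35.0, 65.9, 41.7, 49.2 and 23.1 CPM in stress RE mice.

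The 5 genes with the smallest p-values are given as values. Elmo1, which encodes an activator of Rac in engulfment and migration, had a log2 fold change of 1.63 (SE 0.30, edgeR adjusted p = 0.233). Traip, a ubiquitin ligase gene of the replication fork, read 58.1, 64.9, 74.4 and 63.1 CPM in control RE mice and 33.5, 27.1, 16.1, 34.1 and 40.5 CPM in stress RE mice, with a log2 fold change of -1.01 (SE 0.24, edgeR adjusted p = 1.00). The groups did not overlap in Traip, while NP mice spanned 46.2 to 154 CPM. Traip was named by its p-value in largely the same mice, so this lack of overlap is no separate support. Nim1k, a kinase gene, had a log2 fold change of 1.33 (SE 0.33), Calcrl, a receptor gene of the calcitonin family, -1.46 (SE 0.38), and Tbc1d4, a Rab GTPase-activating protein gene, 1.71 (SE 0.44), each with an edgeR adjusted p of 1.00. Control RE mouse 87, which was not in the fit, had 74.4 CPM of Tbc1d4, above the 16.1 to 34.1 CPM of the stress RE mice, and with all mice of at least 5 nuclei the log2 fold change of Tbc1d4 was 0.97. Without 1 mouse of the fit it ran from 1.30 (without control RE mouse 72) to 2.41 (without control RE mouse 88).

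Only 2 NP mice had at least 10 CA2 nuclei, so both comparisons with NP were fitted on all 15 mice, each with at least 5 nuclei, a choice made after the nuclei had been counted. For control RE against NP, which asks what reproduction itself left behind, 0 of 6174 genes (0.0%) were called by edgeR and 0 by DESeq2, while edgeR gave 273 genes an unadjusted p under 0.05. The smallest p-values belonged to the adhesion and matrix genes Gpc6 (log2 fold change -3.23, SE 0.73), Cntn4 (-1.76, SE 0.44) and Cntn3 (-1.66, SE 0.50), to Lrp8 (-0.93, SE 0.28), a reelin receptor gene, and to Gm12536 (1.77, SE 0.46). The lowest edgeR adjusted p among them was 0.919. Gpc6 ranged from 4.86 to 129 CPM in NP mice (median 21.3) and read 4.47, 7.02, 18.6 and 0 CPM in control RE mice, where the 0 of mouse 88 allows up to 6.52 CPM. Without the 8 nuclei rich in oligodendrocyte or vascular RNA, Gpc6 ranged from 4.86 to 52.9 CPM in NP mice and its log2 fold change was -2.17 (edgeR adjusted p = 0.969). Cntn4 was 38.9 to 244 CPM in NP mice (median 116) and 33.5, 40.4, 37.2 and 23.9 CPM in control RE mice, so those groups touched at their edges. Both contactin genes were higher in a neighbour, with Cntn4 at 532 to 862 CPM in CA1 and Cntn3 at 282 to 446 CPM in CA3 over all mice.

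For stress RE against NP, 0 of 6174 genes (0.0%) were called by edgeR and 0 by DESeq2, while edgeR gave 336 genes an unadjusted p under 0.05. Traip had a log2 fold change of -1.27 (SE 0.25, edgeR adjusted p = 0.224), with the 5 stress RE mice at 16.1 to 40.5 CPM and the 6 NP mice at 46.2 to 154 CPM. In CA3, Traip was 26.5 to 54.2 CPM in NP and 22.2 to 34.3 CPM in stress RE mice. In CA1 it was 69.0 to 139 and 50.7 to 97.2 CPM, so in both fields the groups overlapped. NP mice 27 and 31, both of batch 1, had the highest Traip levels in all 3 fields. The part of batch was not tested. Gpc5, a glypican gene, had a log2 fold change of 1.14 (SE 0.25, edgeR adjusted p = 0.392), with 72.3 to 215 CPM in NP mice and 426, 318, 379, 132 and 327 CPM in stress RE mice. Apod, an apolipoprotein gene that oligodendrocyte nuclei carry at 409 CPM, had one of 4.50 (SE 1.07, edgeR adjusted p = 0.517): 1 UMI was seen in all NP mice together, and stress RE mice read 4.57, 23.3, 22.5, 37.9 and 0 CPM. Apod was highest in mouse 77, which also had the highest sum of oligodendrocyte markers. Without the 8 nuclei rich in oligodendrocyte or vascular RNA, Apod was 0 in every NP mouse and 0 to 22.5 CPM in stress RE mice, with a mean of 8.02 CPM. Dpysl2 (-0.70, SE 0.17) and Grb14 (0.62, SE 0.15) completed the 5 genes. Of the genes on the lists, 7 of 105 had an unadjusted p under 0.05 for control RE against NP (6.67%, against 4.42% of all genes) and 8 of 105 for stress RE against NP (7.62%, against 5.44%).

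Whether the ratio of stress RE to control RE differed between CA2 and its neighbours was tested as an interaction in the same 10 mice. The mouse served as a block. This fit took 1 dispersion per gene over the sums of both fields. In these mice CA2 sums held 13 to 28 nuclei per mouse, and CA3 sums 241 to 583. Against CA1, 0 of 10376 genes (0.0%) were called, with 442 at an unadjusted p under 0.05. The 5 smallest p-values were those of A230006K03Rik (difference of log2 fold changes -0.73, SE 0.16), Gm32647 (2.32, SE 0.53), Elmo1 (1.49, SE 0.35), Sntb1 (2.84) and Nim1k (1.26), with edgeR adjusted p-values of 0.965 or above. That of Gm32647 turned to -1.17 in nuclei with at least 2 UMIs of each rule gene. Over all mice Gm32647 read 487 to 1152 CPM in CA3 and 0 to 289 CPM in CA2. Against CA3, 2 of 13416 genes (0.0149%) were called, Gabrg3 and Elmo1, both with a larger stress RE over control RE ratio in CA2. Gabrg3 encodes a GABA-A receptor subunit. The difference of log2 fold changes was 1.35 (SE 0.25, edgeR adjusted p = 0.0364) for Gabrg3 and 1.61 (SE 0.30, edgeR adjusted p = 0.0364) for Elmo1. Cntn4 (1.62, SE 0.38), Ctnna3 (2.64, SE 0.61) and Nim1k (1.38, SE 0.33) came next, at an edgeR adjusted p of 0.377. An unadjusted p under 0.05 was reached by 4.26% of all genes and 22 of 165 genes on the lists (13.3%) against CA1, and by 640 genes (4.77%) and 24 of 184 on the lists (13.0%) against CA3. Markers of other cell types were among these without being called, with a larger stress RE over control RE ratio in CA2. They were 5 of 5 oligodendrocyte markers against CA1 (median difference 3.07) and 4 of 5 against CA3 (median 2.67), and against both the astrocyte gene Slc1a2 (0.91 and 0.82), the cortical markers Rorb (1.03 and 0.92) and Foxp2 (2.89 and 3.59) and the thalamic marker Lef1 (4.22 and 3.75). The granule marker Calb1, near absent from CA2, was also among them against both (6.06 and 6.77), and the mossy cell marker Nmb against CA3. The granule list as a whole was divided. Its median difference was -0.29 against CA1 (3 tested, lowest -0.82) and 0.05 against CA3 (6 tested, lowest -5.26). Of the 5 mossy markers against CA3, the lowest difference was -0.68. Of the 5 cortical markers, the lowest difference was -1.04 against CA1 and -1.05 against CA3. The part of RNA from other neurons in the calls was not tested.

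In CA2, Gabrg3 read 53.7, 63.2, 55.8 and 65.2 CPM in control RE mice 66, 72, 87 and 88 and 157, 73.6, 254, 74.4 and 208 CPM in stress RE mice 43, 70, 75, 77 and 90. The groups did not overlap, but the NP mice, from 29.1 to 202 CPM (median 122), overlapped with both. In CA3 the same mice read 140, 135, 150 and 140 CPM in control RE and 130, 109, 139, 104 and 140 CPM in stress RE. In CA2, 3 stress RE mice stood far above the control RE mice and 2 just above them, whereas in CA3 the groups overlapped. Gabrg3 was far higher in CA1, at 543 to 912 CPM over all mice, and the part of CA1 RNA in the CA2 values was not tested. Within CA2 alone the log2 fold change of Gabrg3, 1.26 (SE 0.35), had an edgeR adjusted p of 1.00, and so had its difference from the effect in CA1, 1.06 (SE 0.35). The SE of its difference from the effect in CA3, 0.25, was smaller than that of the effect within CA2. Elmo1 read 33.5, 14.0, 37.2 and 23.9 CPM in control RE and 50.3, 87.2, 89.9, 82.0 and 54.9 CPM in stress RE mice in CA2, again without overlap, with NP mice from 18.4 to 92.3 CPM (median 42.2). In CA3 it read 95.3, 91.2, 107 and 78.9 CPM in control RE and 74.2 to 114 CPM in stress RE mice, which overlapped. Gabrg3 and Elmo1 were named by their p-values in largely the same mice. Their lack of overlap in CA2 is therefore no separate support, and how many other genes show it is not given here.

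Both calls, though not the size of the differences, hung on single mice: without 1 mouse the difference was 1.18 to 1.51 for Gabrg3 and 1.28 to 1.87 for Elmo1. With 3 control RE mice in the fit, leaving out any one of them ended both, and the edgeR adjusted p was then 0.671, 0.335 or 0.376 for Gabrg3 and 0.191, 0.638 or 0.376 for Elmo1 (without mouse 66, 72 or 88). Without stress RE mouse 90 that of Gabrg3 was 0.0690, and without mouse 70 or 77 that of Elmo1 was 0.128 or 0.119. Elmo1 stood at 1174 CPM in oligodendrocyte nuclei, and without the 8 nuclei rich in oligodendrocyte or vascular RNA its difference was 1.46 (edgeR adjusted p = 0.0726), with 50.3, 80.3, 89.9, 62.7 and 54.9 CPM in stress RE and 33.5, 14.0, 46.4 and 23.9 CPM in control RE mice. Those groups still did not overlap. For Gabrg3 the difference without these nuclei was 1.40 (edgeR adjusted p = 0.00960).

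**Figure D2:**
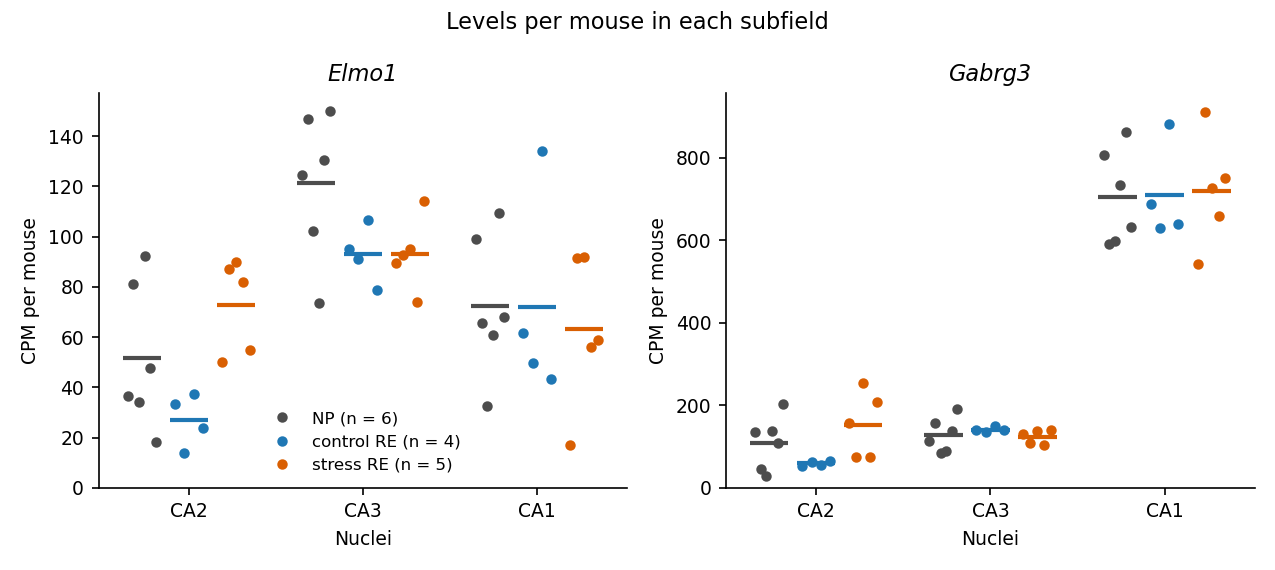
Level (CPM) of Elmo1 and Gabrg3 in CA2, CA3 and CA1 nuclei, 1 point per mouse by group, with the group mean as a line. In CA2 the control RE and stress RE mice do not overlap for either gene and the NP mice overlap with both, while in CA3 and CA1 they overlap.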

How the data were processed

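Single-nucleus RNA-seq libraries (10x 3′ chemistry) of 15 mice were used. The authors aligned the reads to the mouse genome (mm10) and deposited filtered matrices of raw UMI counts over 32285 genes, made with Cell Ranger 7.0.0 per the file headers (7.1.0 per the submitters' processing notes). The authors' later removal of ambient RNA and doublets is not in these matrices. Coordinates are those of GRCm38.

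Counts were summed over the CA2 nuclei of each mouse. CPM was computed from these sums, and log2 values used a pseudocount of 1 CPM. The sums were tested with edgeR 4.0.16 (R 4.3.3; filterByExpr, TMM, quasi-likelihood) with Benjamini-Hochberg adjustment over all genes tested and a threshold of 0.05, in mice with at least 10 CA2 nuclei, and with DESeq2 1.42.0 as an alternative. Shares were tested by exact permutation over mice (scipy 1.17.1). The edgeR script was tested on simulated data. A mouse is 1 replicate, and each mouse was 1 library.

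Named genes were all called genes up to 10 per comparison, or the 5 with the smallest p where fewer than 5 were called, the 15 highest and 15 lowest over each neighbour at 20 CPM or more, and the members of the lists. The members and lists were chosen with earlier results of these data known. Doublets were scored with Scrublet (scanpy 1.11.5) and kept in, apart from 1 alternative. Columns belonging to other samples numbered 0. Intervals cover counting error only. Some members of the lists count in the totals but are not reported here by name.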

Additional observations from a re-analysis of the deposited data

Results flagged for a closer look

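Among 99 groups of 4 to 6 mice examined, a single mouse stood apart from its group in 7, where chance gives about 1 in 20. The 7 are not every such case in the report. Acan, not among them, was 244 CPM in NP mouse 31, with the next NP mouse at 78.5 CPM. In NP mouse 31, which had 7 CA2 nuclei, Amigo2 was 181 CPM, with the next NP mouse at 82.2 CPM, and the noncoding RNA Gm32647 was 289 CPM, with the next at 82.2 CPM. In NP mouse 73, also with 7 nuclei, Fgf2 was 104 CPM against 63.2 CPM in the next. Apod was 1.75 CPM in NP mouse 27, a single UMI, and 0 in the other NP mice. In control RE mouse 87, with 7 nuclei, Dpysl2 was 158 CPM against 103 CPM in the next, and Tbc1d4 was 74.4 CPM against 15.2 CPM. Without the 8 nuclei rich in oligodendrocyte or vascular RNA, 1 of them the vascular one of mouse 87, the highest control RE value was 15.2 CPM for Tbc1d4 and 151 CPM for Dpysl2, and Apod was 0 in every NP mouse. Sntb1, a syntrophin gene, was 50.4 CPM in stress RE mouse 70 against 18.3 CPM in the next.

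By the interaction test in edgeR, 2 genes were called for a ratio of stress RE to control RE that differed between CA2 and CA3. They were Gabrg3 (difference of log2 fold changes 1.35) and Elmo1 (1.61), with an adjusted p of 0.0364 for each. Both calls ended when control RE mouse 66, 72 or 88 was left out. Within CA2, the log2 fold change of control RE over NP was -0.85 (SE 0.39) for Gabrg3 and -0.93 (SE 0.36) for Elmo1. That of stress RE over NP was 0.43 (SE 0.32) and 0.63 (SE 0.28). None of these was called.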

How the results depend on the processing

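The difference in CA2 share between control RE and NP, -0.137 points, had no stable sign. It was 0.00580 over all barcodes with at least 1000 genes, 0.00323 over all barcodes and 0.190 with at least 2 of the 3 rule genes. After thinning to 5000 UMIs it was 0.0304, which rests on 14 nuclei that met the rule on thinned counts. In nuclei of at least 15000 UMIs, a choice made after seeing the data, it was 0.137. It ran from -0.219 to 0.0343 when 1 mouse was left out, positive without NP mouse 27. Neither other share comparison changed sign, with 0.204 to 0.406 for stress RE minus control RE and 0.0912 to 0.349 for stress RE minus NP without 1 mouse. With no filter on low counts, every gene with any UMI in the fit was tested, genes near 0 included. Then 29 genes were called for stress RE against control RE, 42 for control RE against NP, 16 for stress RE against NP, 19 for CA2 against CA1 and 30 for CA2 against CA3. These counts rest on a wider set of genes than the 6809, 6174, 10376 and 13416 of the main fits. The size of that set is not given here, so the counts state no share of the genes tested. The levels of the genes called were not examined. Restricting stress RE against control RE to the 4 mice with at least 20 nuclei called 36, with the lone stress RE and NP mice assumed to vary like the controls. The 2 calls for CA2 against CA3 became 7 with at least 2 UMIs of each rule gene, 1 without the nuclei rich in oligodendrocyte or vascular RNA and 1 in mice with at least 5 nuclei, the last a choice made after seeing the data, as was leaving out those nuclei. Each of these fits had its own set of genes tested, whose size is not given here. Without 1 mouse, calls ran from 0 to 1 for stress RE against control RE (1 without mouse 90), 0 to 1 for stress RE against NP (1, Gpc5, without mouse 77) and 0 to 3 for CA2 against CA3 (0 without control RE mouse 66, 72 or 88, 1 without stress RE mouse 70, 3 without mouse 43), and stayed at 0 for control RE against NP and CA2 against CA1. With at least 2 UMIs of each rule gene, Gm32647 (CA2 against CA1) turned to -1.17 and Actn2 over CA3 to 0.12. The causes were not tested. Interactions involving NP were not run, since 2 NP mice had at least 10 nuclei. No paired analysis was possible because each mouse belonged to 1 group and the labels give no replicate number that ties mice of different groups. Batch ties groups of mice, not pairs, and with batch as a term 0 genes were called in each of the 3 comparisons within CA2.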
